A study of Mus musculus with 28 samples.

Results

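The regions described are the ATAC-seq peaks that both of the authors' Yap active lists hold and neither control list does. They are the peaks of the second Yap active list on chromosomes 1 to 19, X and Y that overlap a peak of the first Yap active list by at least 1 bp and no peak of either control list. There were 8397 of them among the 53497 peaks of the second Yap active list (15.7%), and among 488155 peaks in the 4 lists together. They are called shared peaks below, and the remaining 45100 peaks of the second Yap active list are called the other peaks. The lists themselves chose the members, so overlap between lists, fold and width are given as descriptions without a test.

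The cells were EPCAM-positive mouse lung cells labelled AT2, selected on magnetic beads once beads against CD31, CD271, CD90.2, Ter119, CD16/32 and CD45 had taken other cells out, with recombination at postnatal day 3 and collection at postnatal day 14. Yap active mice were Stk3flox/flox/Stk4flox/flox SftpcCreert2, and their controls were Stk3flox/flox/Stk4flox/flox without the Cre. Yap deleted mice were Yapflox/flox SftpcCreert2, and their controls were Yapflox/flox without the Cre. Both lines thus compare floxed mice with an inducible Cre driven by Sftpc, the surfactant protein C gene of AT2 cells, with floxed mice that lack it. No group carries the Cre without a floxed gene, so an effect of the Cre itself cannot be told apart from that of the deletion. ATAC libraries, from 50000 cells each, numbered 3 Yap active, 3 control, 2 Yap deleted and 1 Yap deleted control, and RNA libraries numbered 6, 4, 5 and 4 in the same order. The labels attach the second Yap active list to Yap active ATAC library 1 and the first to libraries 2 and 3. They attach the second control list to control libraries 1 and 3 and the first to control library 2. Whether libraries of a group came from separate animals is not stated, and p-values therefore measure the spread between these samples, which may be technical.

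ATAC-seq marks open chromatin, because the transposase inserts sequencing adapters where DNA is not packed in nucleosomes. Yap is a transcriptional coactivator held in the cytoplasm by the Hippo kinases, of which Stk3 and Stk4 (Mst2 and Mst1) stand at the top, and their loss lets Yap enter the nucleus and bind TEAD factors at DNA. In the alveolus, AT2 cells make surfactant and serve as progenitors of the thin AT1 cells, and Yap activity is known to favour the AT1 fate.

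Some shared peaks lay at genes of the Hippo pathway itself, about as often as at expressed genes in general. Of 28 Hippo genes with a start site in the RefSeq promoter table, 8 had a shared peak within 1 kb, which were Yap1, its paralogue Wwtr1 (Taz), the angiomotins Amotl1 and Amotl2 that hold Yap at junctions, the scaffolds Wwc2 and Wtip, the kinase cofactor Mob1b and the TEAD cofactor Vgll4. Among Hippo genes whose RNA could be tested, 8 of 26 (30.8%) had one, against 30.1% of all genes tested with a start site. In 7 of these, all but Vgll4, the shared peak overlapped the 300-base promoter window of that table, which runs from 250 bases before to 50 bases after the start site. Those 7 windows are printed because they show where the peak sits and whether it covers letters of the TEAD core. They are RefSeq sequence of build GRCm38.p6, written 5′ to 3′ on the strand of the gene, and the capitals mark the bases that lie inside the shared peak.

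Yap1, chr9:8004547-8004846, minus strand: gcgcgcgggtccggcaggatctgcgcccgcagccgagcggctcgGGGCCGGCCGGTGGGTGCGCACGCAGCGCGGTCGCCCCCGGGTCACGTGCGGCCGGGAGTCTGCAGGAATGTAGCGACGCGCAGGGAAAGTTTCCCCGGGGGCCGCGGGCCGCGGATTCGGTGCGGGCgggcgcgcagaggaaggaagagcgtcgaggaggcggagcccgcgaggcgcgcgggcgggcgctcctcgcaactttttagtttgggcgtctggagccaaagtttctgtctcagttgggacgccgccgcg
Wwtr1, chr3:57575827-57576126, minus strand: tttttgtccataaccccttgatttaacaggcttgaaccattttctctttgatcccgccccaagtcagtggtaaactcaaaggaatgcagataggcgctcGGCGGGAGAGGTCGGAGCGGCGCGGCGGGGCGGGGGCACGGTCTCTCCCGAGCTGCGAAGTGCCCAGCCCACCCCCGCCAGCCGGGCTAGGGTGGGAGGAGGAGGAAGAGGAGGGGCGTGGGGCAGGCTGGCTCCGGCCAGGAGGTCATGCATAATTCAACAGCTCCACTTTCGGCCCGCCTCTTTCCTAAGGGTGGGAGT
Amotl1, chr9:14614951-14615250, minus strand: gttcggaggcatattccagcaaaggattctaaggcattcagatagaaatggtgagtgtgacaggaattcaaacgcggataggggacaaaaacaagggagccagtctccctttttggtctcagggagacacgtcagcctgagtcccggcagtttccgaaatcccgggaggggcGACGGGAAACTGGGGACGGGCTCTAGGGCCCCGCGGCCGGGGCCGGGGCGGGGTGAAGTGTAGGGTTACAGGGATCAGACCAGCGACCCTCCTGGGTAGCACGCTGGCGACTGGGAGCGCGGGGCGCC
Amotl2, chr9:102717554-102717853, plus strand: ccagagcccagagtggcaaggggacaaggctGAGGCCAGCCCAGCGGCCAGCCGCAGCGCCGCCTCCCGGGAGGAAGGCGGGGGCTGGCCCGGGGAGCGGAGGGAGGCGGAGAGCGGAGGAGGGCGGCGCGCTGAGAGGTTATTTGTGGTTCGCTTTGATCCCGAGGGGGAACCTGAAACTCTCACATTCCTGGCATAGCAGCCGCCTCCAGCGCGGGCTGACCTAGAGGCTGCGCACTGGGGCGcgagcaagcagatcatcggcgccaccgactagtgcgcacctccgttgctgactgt
Wwc2, chr8:47990495-47990794, minus strand: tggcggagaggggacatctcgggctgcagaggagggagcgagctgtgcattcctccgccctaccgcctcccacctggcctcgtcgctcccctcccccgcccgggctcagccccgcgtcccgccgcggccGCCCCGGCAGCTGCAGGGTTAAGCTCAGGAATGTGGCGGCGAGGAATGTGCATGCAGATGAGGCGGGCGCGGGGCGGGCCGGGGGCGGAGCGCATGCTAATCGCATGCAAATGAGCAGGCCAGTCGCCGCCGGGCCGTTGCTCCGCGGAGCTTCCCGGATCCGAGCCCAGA
Wtip, chr7:34133219-34133518, minus strand: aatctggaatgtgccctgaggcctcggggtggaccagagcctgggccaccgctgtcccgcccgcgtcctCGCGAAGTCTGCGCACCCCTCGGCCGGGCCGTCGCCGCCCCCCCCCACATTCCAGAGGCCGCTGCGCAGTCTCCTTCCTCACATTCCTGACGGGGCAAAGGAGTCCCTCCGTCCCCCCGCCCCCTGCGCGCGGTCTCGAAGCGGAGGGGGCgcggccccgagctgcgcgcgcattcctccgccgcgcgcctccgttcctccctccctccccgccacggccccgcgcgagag
Mob1b, chr5:88720621-88720920, plus strand: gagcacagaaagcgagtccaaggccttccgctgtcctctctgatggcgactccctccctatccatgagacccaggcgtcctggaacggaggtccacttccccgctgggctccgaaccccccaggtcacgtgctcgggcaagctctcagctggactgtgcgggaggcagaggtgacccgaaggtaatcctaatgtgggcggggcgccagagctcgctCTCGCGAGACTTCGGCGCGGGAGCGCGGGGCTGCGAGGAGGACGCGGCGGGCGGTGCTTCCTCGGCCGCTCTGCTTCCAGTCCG

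The TEAD core letters GGAATG, searched on both strands, stood in 5 of the 7 windows and inside the shared peak in 4 of them (Yap1, Amotl2, Wwc2 and Wtip). In Yap1 the window held 1 match, and in Amotl2 also 1, each inside the peak. The window of Wwc2 held 3 matches with 2 inside the peak, and that of Wtip held 4 with 2 inside. Wwtr1 had 1 match, outside the peak, and Amotl1 and Mob1b had none. The longer form ACATTCC, which contains the core read on the other strand, stood in 4 of the 7, first at base 110 of the Yap1 window and at base 185 of the Amotl2 window, counted from the 5′ end. These genes were picked from the list for having a peak, and a match is a run of letters, not a bound site.

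Across all promoters the same letters were not more frequent at shared peaks. A shared peak overlapped 4007 of 32851 promoter windows, belonging to 3675 genes, and GGAATG stood in 11.03% of those windows, against 14.7% of all windows. The share was 13.4% in windows overlapped by the other peaks, 14.7% in those of the second control list and 17.7% in those of the first control list. Among windows of 55 to 65% GC it was 12.1% with a shared peak and 12.99% of all, and above 65% GC it was 8.62% and 7.95%. The windows at shared peaks were richer in G and C, with a median of 64.0% GC against 52.7% in all windows, and their median ratio of observed to expected CpG was 0.82 against 0.38. A shared peak overlapped 0.528% of windows of up to 45% GC, 4.84% of those from 45 to 55%, 20.2% of those from 55 to 65% and 30.6% of those above 65%.

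Of the letters searched, those of the GC box and of ETS factors were the more frequent at shared peaks. The GC box GGGCGGG, which Sp and Klf factors can bind, stood in 60.0% of windows with a shared peak and 25.6% of all windows, and the ETS letters CCGGAAG stood in 20.5% and 8.86%. Among windows of 45 to 55% GC the ETS letters stood in 19.3% with a shared peak and 6.26% of all, and the GC box in 26.6% and 9.47%. In the class above 65% GC the shares were nearer to each other, at 19.9% and 15.5% for ETS and 77.4% and 70.0% for the GC box. The Nfi letters TTGGCA stood in 10.3% of windows with a shared peak against 14.1% of all, the AP-1 letters TGANTCA in 4.32% against 7.81%, the Nkx2 letters CAAGTG in 9.13% against 13.6%, the Foxa letters TGTTTAC in 2.15% against 3.65% and the Klf letters GGGTGTG in 8.09% against 7.95%. The full Nfi palindrome, TTGGCNNNNNGCCAA, stood in 0 windows with a shared peak and in 12 of all windows. All motifs were searched on both strands. These shares describe letters in windows that differ in base composition, and no test was made of them.

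Shared peaks were wider and had a lower fold than the rest of their list. Their median width was 171 bp, with quartiles of 114 and 249 bp and a range of 66 to 5793 bp, against a median of 81 bp with quartiles of 66 and 170 bp for the other peaks. Fold here is the authors' value per peak, enrichment over a background that the sources used here do not name. Its median was 1.78 in shared peaks, with quartiles of 1.64 and 2.10 and a range of 1.42 to 4.16, against 2.49 with quartiles of 2.44 and 2.67 and a highest value of 7.55 in the other peaks. The authors' median −log10 p was 2.63 in shared peaks and 2.91 in the other peaks. A q-value under 0.05 was about equally rare in both, at 5 of 8397 shared peaks and 29 of 45100 other peaks. The q-value was 1 for 45.5% of shared peaks and 58.9% of other peaks. Most shared peaks were thus of low enrichment in the second list.

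**Figure D1:**
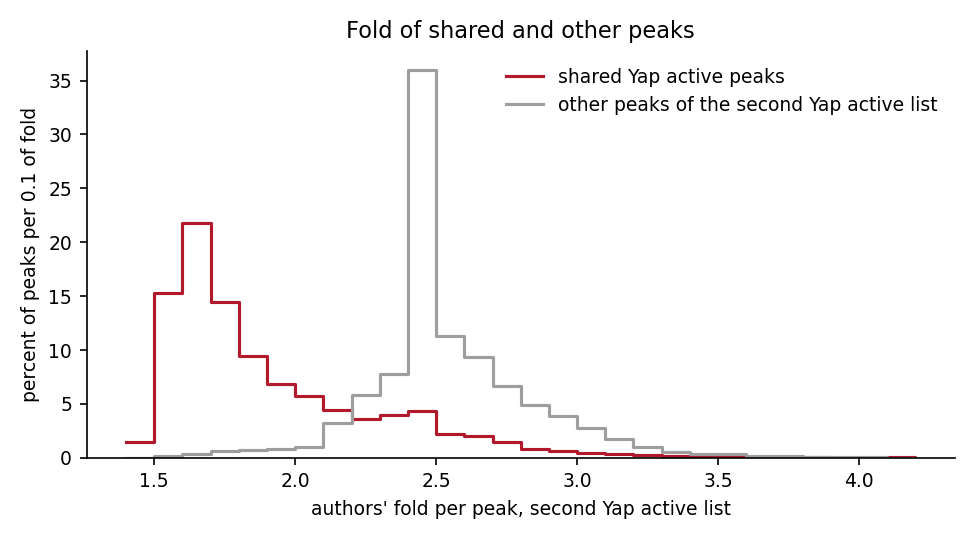
Percent of peaks (vertical axis) in steps of 0.1 of the authors' fold per peak (horizontal axis), for the 8397 shared Yap active peaks (red) and the 45100 other peaks of the second Yap active list (grey). The shared peaks pile up between 1.5 and 1.8, and the other peaks have their highest step from 2.4 to 2.5.

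Up to the first quartile of fold of the list, 2.32, 7029 of 13375 peaks were shared (52.6%), whereas in the 3 classes cut at the quartiles above it 3.16% to 3.73% were. The 7029 shared peaks of that lowest class had a median width of 179 bp, and 54.3% of those on chromosomes with start sites lay within 1 kb of one. The other 1368 shared peaks, above 2.32, had a median width of 133 bp and only 5.57% within 1 kb of a start site. The other peaks of the lowest class lay within 1 kb of a start site in 13.95% of cases. The fold of a shared peak in the second list and that of the peak it overlaps in the first ran together (Spearman's rho 0.72, Pearson's r 0.61 across 8397 peaks, which are not replicates and share the 2 lists). The partners in the first list had a median fold of 2.47, a median width of 214 bp and a median overlap of 119 bp, and 2662 shared peaks (31.7%) lay wholly inside their partner.

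At the edge of the rule, 3 peaks overlapped the first list by 1 bp, at chr14:20480039-20480134 with a fold of 1.73, chr1:83031991-83032107 with 2.55 and chr17:14203192-14203330 with 1.89. Just outside it, 3 peaks ended directly beside a peak of the first list, at chr15:96698958-96699111 with a fold of 1.94, chr17:85881915-85881980 with 2.27 and chr2:73585490-73585593 with 2.35. The folds on both sides of the edge lay in the same range. Of the 8455 peaks that overlapped the first Yap active list, 39 were removed for overlapping the first control list and 19 for overlapping the second.

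The 4 lists differed in size. The first control list held 344689 peaks, the second 28399, and the first Yap active list 61570. Of the peaks of the second Yap active list, 0.0822% overlapped the second control list and 6.23% the first, whereas of the peaks of the first Yap active list 7.20% overlapped the second control list and 0.242% the first. Lists with the same number thus overlapped far less than lists with different numbers, and the caller's settings, including any background library, are not given in the sources used here.

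Shared peaks lay at gene starts far more often than the rest of their list did. Of 8086 shared peaks on the chromosomes of the promoter table, 3750 (46.4%, 95% Wilson interval 45.3 to 47.5) lay within 1 kb of a start site, against 1836 of 43470 other peaks (4.22%). A start site lay inside the peak for 2175 shared peaks (26.9%) and for 0.994% of other peaks. The share within 1 kb was 18.5% over the whole first Yap active list, 7.48% in the second control list and 2.01% in the first control list. At the other end, 18.7% of shared peaks and 39.2% of other peaks lay more than 50 kb from any start site in the table. The interval covers counting error only, and the promoter table is incomplete and holds no site on chromosome 18, so the shares within 1 kb are low figures. Counted over the full RefSeq gene table, 53.1% of shared peaks and 9.49% of other peaks lay within 1 kb of either end of a gene, and 74.1% and 56.1% overlapped a gene body.

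**Figure D2:**
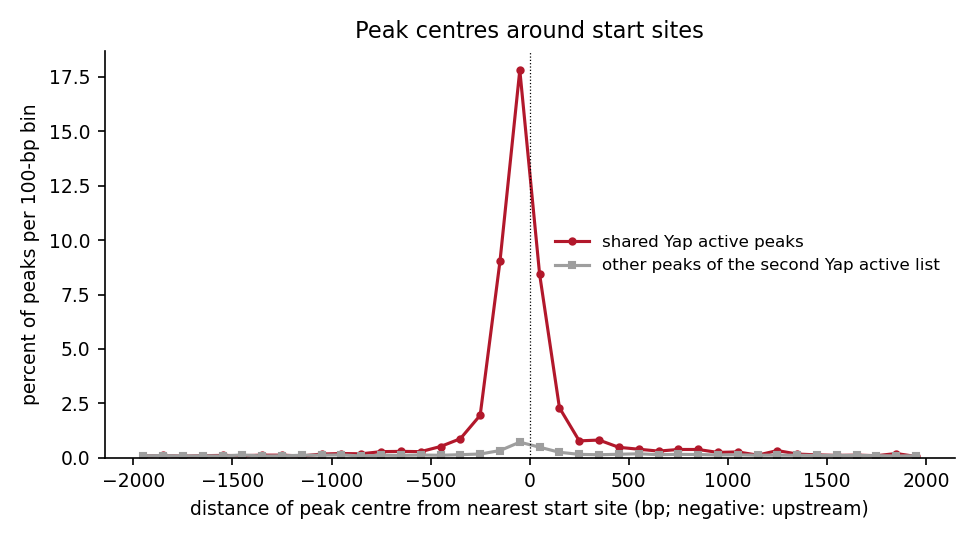
Percent of peaks (vertical axis) whose centre falls in each 100-bp bin of distance from the nearest RefSeq start site (horizontal axis, negative values upstream), for shared Yap active peaks (red) and the other peaks of the second Yap active list (grey). The shared peaks reach 17.8% in the bin just upstream of the start, where the other peaks have 0.720%.

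The centres of the shared peaks sat slightly upstream of the start sites. Among 3717 shared peaks with the centre within 1 kb of a start, 2542 lay upstream and 1172 downstream (31.5%), and the median signed distance was −47 bp. The 100-bp bin just upstream of the start alone held 1440 shared peaks (17.8%), against 313 other peaks (0.720%). Shared peaks that covered a start site were wider, with a median of 220 bp, than those from 5 to 50 kb away, with 156 bp, and had a lower fold in the second list, 1.66 against 2.03. The share within 1 kb grew with width, with 35.99% of shared peaks up to 100 bp wide, 43.9% of those up to 200 bp, 51.6% of those up to 400 bp and 64.97% of those up to 800 bp, against 2.86%, 6.46%, 5.29% and 6.17% of other peaks in the same classes. The excess of shared peaks over other peaks at start sites was thus present in each of these width classes.

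The chromosomes contributed unevenly. The most shared peaks lay on chromosome 2, with 589, and chromosome 1, with 583. As a share of the second Yap active list, shared peaks made up from 12.9% on chromosome 11 and 13.3% on chromosome 9 to 18.2% on chromosome X and 18.8% on chromosome 17. On chromosome Y 10 of 235 peaks were shared (4.26%). Chromosome X took 2.54% of the second Yap active list but 5.43% of the first, and 2.58% and 4.48% of the second and first control lists. The sex of the mice behind each library is not given in the labels, so its part in the chromosome X and Y counts was not tested.

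The authors' list of regions opened in the Yap active line comes from the same ATAC libraries, so its overlap with the shared peaks is a description. Of the shared peaks, 1979 (23.6%, 95% Wilson interval 22.7 to 24.5) overlapped one of its 6017 regions by at least 1 bp, against 232 other peaks (0.514%) and 4.13% of the whole second Yap active list. The share was 11.4% over the whole first Yap active list (7009 of 61570 peaks). It was 2.54% in the second control list and 0.00377% in the first control list. Shared peaks overlapped 0 of the regions that the authors list as closed in the Yap active line, and 44 of 45100 other peaks did. Among all 61570 peaks of the first Yap active list the number was also 0. The rule asks for an overlap with that list and with no control list, so no conclusion is drawn from this contrast. The overlap with opened regions was present in every class of distance from the start sites of the promoter table. It was 28.3% of shared peaks that covered a start, 29.1% of those within 1 kb and 21.6% of those from 1 to 5 kb. It was 17.8% of those from 5 to 50 kb and 19.3% of those farther out. Because that table is incomplete, the far classes also hold peaks at gene starts. Among those farther out are peaks in opened regions that the authors' annotation places at the promoters of Rb1cc1, Ncoa2 and Ube2w. The overlap far from all gene starts was therefore not measured.

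Seen from the opened regions, 1848 of 6017 (30.7%) held a shared peak, and 123 of these held 2 or more. The score is the authors' value per region, on a scale that is not stated, and serves here only to rank regions. All 20 regions of highest score held a shared peak, as did 97 of the 100 highest and 427 of the 500 highest, but only 86 of the 1000 lowest. In 10 classes of equal size by score the share was 83.0% in the highest class and 7.14% in the lowest. The median width of the regions fell along the same classes, from 1861 bp to 684.5 bp, and its part in the shares was not tested. In the authors' annotation, 43.3% of regions with a shared peak were at a promoter, 25.5% in an intron and 17.0% between genes, against 23.5%, 35.9% and 30.5% of regions with none. Regions with a shared peak were also wider, with a median of 1422 bp against 1014 bp.

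**Figure D3:**
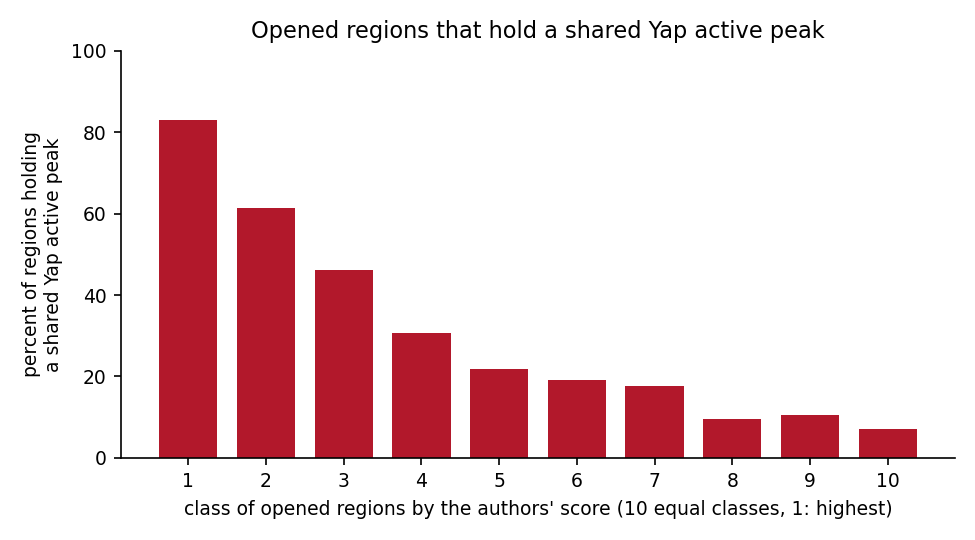
Percent of the authors' opened regions that hold a shared Yap active peak (vertical axis), by class of score (10 classes of equal size, 1 the highest). The bars stand at 83.0% in class 1 and 7.14% in class 10. The median width of the regions is 1861 bp in class 1 and 684.5 bp in class 10.

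The region of highest score lay at Hjurp, which encodes the chaperone that loads the centromeric histone, at chr1:88276517-88280150 in build mm10. It held 2 shared peaks, of which the one at chr1:88277461-88277798 covered a start site and had a fold of 1.71 and a −log10 p of 5.26. Next by score, leaving out chromosome 18, came regions that the authors' annotation gives to Evi5l, Sertad2, Pcmtd1, Cadm2, Tmem60, Arrdc4, Wipi1, Atp2b1 and Klf13. Those of Evi5l, Sertad2, Tmem60, Wipi1 and Atp2b1 are at promoters, and the one of Pcmtd1 lies between genes, 309047 bp from the start site in that annotation.

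Among the opened regions that the authors' annotation gives to Nfi and Klf factors, the transcription factors named in the title of the series, 12 of 29 held a shared peak, against 30.7% of all opened regions. They included the promoter of Nfib at chr4:82504374-82507594, an intronic region of Nfia at chr4:97772314-97773878, and an intronic region of Klf5 at chr14:99298610-99300208, 718 bp from the start in the authors' annotation, which held 2 shared peaks. At Klf6 both the promoter region and one 8579 bp downstream of the start held a shared peak. For AP-1 factors the count was 6 of 12 regions, 4 of them given to Jun, the widest at chr4:95046007-95054080 with 3 shared peaks. For Yap and TEAD targets it was 9 of 22, among them the promoters of Amotl1, Amotl2 and Arhgef17 and a region at −14150 bp (upstream) of the start of Fat1, an atypical cadherin, with 2 shared peaks. For Hippo components it was 9 of 17, and these included regions at Wwtr1, Wwc2, Mob1b, Amot, at −17852 bp of its start, and Stk3, at −27834 bp. For cell cycle genes it was 4 of 6, for ciliated cell markers 2 of 4 and for mesenchymal markers 1 of 9.

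The counts that follow stand beside the same 30.7% of all opened regions. Of regions given to lung epithelial transcription factors 6 of 26 held a shared peak, including regions 255 bp from the start of Foxp2, 22 bp from that of Stat3 and at −1949 bp of that of Id2. The count was 4 of 16 for AT1 markers and 3 of 13 for AT2 markers, with regions at Timp3, Lmo7, Col4a4 and Sema3a in the AT1 list and at Ctsh, Dram1 and Lpcat1 in the AT2 list. Signalling genes had 8 of 26, with promoters of Dusp6 and Spry2, both inhibitors of the ERK pathway, of Tgfbr1, a TGF-beta receptor, and of Id1, a BMP target. Adhesion genes had 6 of 16, including Zyx, a focal adhesion protein. Of the regions given to endothelial and to club and goblet cell markers, 3 each, none held a shared peak, and of 2 given to leukocyte markers 1 did, in an intron of Ikzf1.

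The 5 shared peaks of highest fold were 66 to 322 bp wide and lay 4026 to 763679 bp from the nearest start site of the table. The first 3 were at chr13:45355003-45355074 with a fold of 4.16, chr6:123539909-123539976 with 4.15 and chr3:127843638-127843959 with 4.11, and none of the 5 overlapped an opened region. Among shared peaks with a gene start within 1 kb, Bzw1, a translation regulator, had the highest fold, 3.36, with the peak at chr1:58392719-58392858, 40 bp upstream of the start and inside an opened region. Ankrd31, A930001C03Rik, Gm10354, Efhd1, 4930568G15Rik, Gm36476 and Tom1l1 followed with folds of 3.28 to 2.98, and of these Tom1l1 alone lay in an opened region.

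The widest shared peak, 5793 bp at chr17:39843011-39848803 with a fold of 1.51, lay over AY036118 and the ribosomal RNA gene Rn18s-rs5, where reads of many repeat copies can collect. The next was 950 bp wide at chr9:3002055-3003004 and overlapped no gene. The third, 933 bp at chr9:94538057-94538989, covered the start of Dipk2a with a fold of 1.55. Counts at repeat copies depend on how the authors treated reads with several matches, a step the sources used here leave unstated.

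A shared peak lay within 1 kb of a start site of 4287 of the 27025 genes in the promoter table (15.9%), and within 1 kb of 30.1% of those tested in RNA of the Yap active line, which is the share the lists are set against since most of their genes are expressed. Of the genes of each list with a start site, the NFI and KLF list had the highest share, 8 of 13 (61.5%; Klf2, Klf3, Klf6, Klf7, Klf9, Klf11, Klf13 and Klf15). AP-1 factors had 6 of 11 (54.5%; Fos, Fosb, Jun, Jund, Atf3 and Mafk). Lung epithelial factors had 8 of 19 (42.1%; Foxa2, Etv5, Id2, Elf5, Grhl1, Stat3, Irx2 and Irx3), and signalling genes also 8 of 19, among them Spry1, Spry2, Dusp6, Jag1, Axin2 and Egfr. The next 4 lists lay below the 30.1%. AT1 markers had 7 of 27 (25.9%; with the caveolins Cav1 and Cav2, and Vegfa and Lmo7), AT2 markers 6 of 23 (26.1%; with Sftpa1, Slc34a2 and Etv5), cell cycle genes 5 of 18 (27.8%) and adhesion genes 4 of 15 (26.7%). Yap and TEAD targets had 3 of 20, which were Amotl1, Amotl2 and Gadd45a. No marker of the club and goblet, endothelial, leukocyte or mesothelial lists had one, of 6, 9, 10 and 2 genes, and 1 of 9 mesenchymal markers did, Plin2.

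Shared peaks at start sites went with expression. Of genes with a start site whose RNA passed the count filter in the Yap active line, 3679 of 12229 (30.1%) had a shared peak, whereas 110 of 5538 (1.99%) of those that failed it did. In 5 classes of equal size by mean CPM, edgeR's count per gene scaled to library size, the share was 12.6%, 28.1%, 35.1%, 38.1% and 36.5% from the lowest class to the highest. For the other peaks it lay between 7.03% and 9.04% in all 5 classes. For the second control list it was 12.6% in the lowest class and 8.99% in the highest, and for the first control list 22.6% and 8.34%. The share of genes with a shared peak was thus near 30.1% or above in classes 2 to 5 and lower in the first. The link with expression was not particular to shared peaks. Of 9087 genes with a peak of the whole first Yap active list within 1 kb, 8546 passed the count filter. Of the 3789 genes with a shared peak 3679 did, and of all 17767 with a start site 12229.

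**Figure D4:**
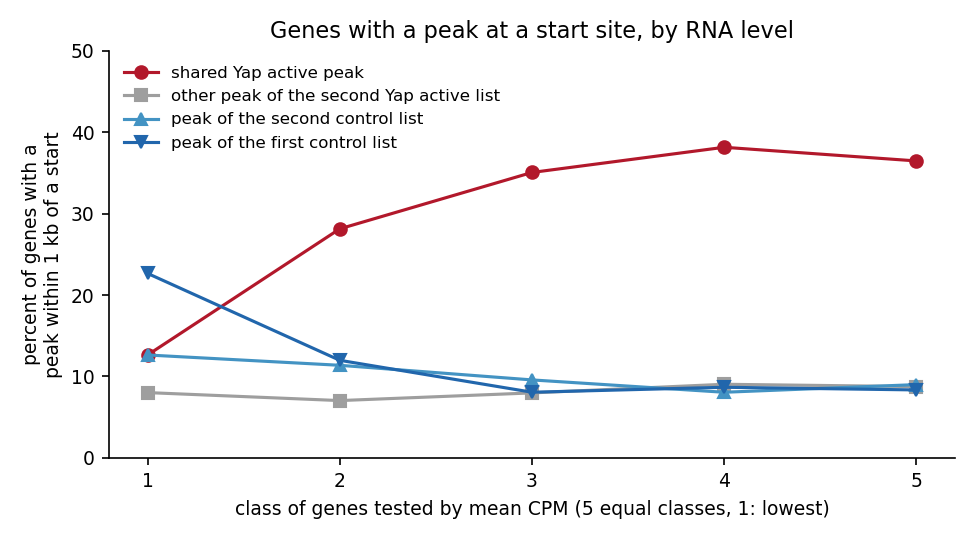
Percent of genes tested in RNA with a peak within 1 kb of a start site (vertical axis), by class of mean CPM over the 10 RNA libraries of the Yap active line (horizontal axis, 5 classes of equal size, 1 the lowest), for shared Yap active peaks (red), other peaks of the second Yap active list (grey), the second control list (light blue) and the first control list (dark blue). The red line stands at 12.6% in class 1 and 38.1% in class 4, the grey line between 7.03% and 9.04%, and the first control list is highest in class 1, at 22.6%.

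RNA gives a readout that the choice of the peaks did not use. Depth in the Yap active table lay between 35.0 and 43.5 M counts a library. Every library had the AT2 markers, whose 6 genes summed to 32252 to 83250 CPM in Yap active and 40099 to 108549 CPM in control libraries. Markers of other cells were also present. The 3 club cell genes summed to 4868 to 17892 CPM in Yap active and 3798 to 9778 CPM in control libraries. In the same order, the 5 AT1 genes had 3695 to 4995 and 1545 to 4690 CPM. The 3 ciliated cell genes had 477 to 942 and 460 to 709 CPM. The 5 mesenchymal genes had 852 to 6438 and 1939 to 6826 CPM, and the 3 mesothelial genes 83.7 to 673 and 308 to 823 CPM. The 5 endothelial genes had 13.2 to 110 and 28.6 to 270 CPM, and the 5 leukocyte genes 28.6 to 82.5 and 35.0 to 58.3 CPM. In bulk samples fewer cells of a type and less RNA per cell cannot be told apart. The libraries labelled Yap active 1 and control 4 stood with the other group on the first principal component, which held 58.1% of the variance, and the mesenchymal sum was at the highest Yap active value in Yap active 1 and the lowest control value in control 4. The part of these cells in the RNA results was not tested.

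The targeted genes come first. Stk3 had 49.5 CPM in Yap active library 1 and 33.8, 35.4, 32.5, 33.2 and 30.6 CPM in libraries 2 to 6, against 53.5, 50.2, 54.6 and 34.0 CPM in control libraries 1 to 4. Yap active 1 and control 4 again lay with the other group. The log2 fold change was −0.42 ± 0.17 (SE), with an adjusted p of 0.366 in edgeR's quasi-likelihood test with Benjamini-Hochberg adjustment. Stk4 had 78.5 to 125 CPM in Yap active libraries, median 88.5, and 103, 106, 112 and 120 CPM in control libraries, with a log2 fold change of −0.25 ± 0.13 (SE) and an adjusted p of 0.366 in edgeR. Esr1, the mouse counterpart of the estrogen receptor part of Creert2, had 1.97 CPM in Yap active library 1 and at least 211 CPM in Yap active libraries 2 to 6, against 160 CPM in control library 2 and at most 3.20 CPM in control libraries 1, 3 and 4. For Esr1 the library labelled Yap active 1 thus lay with the controls and the library labelled control 2 near the Yap active libraries, and counts without these 2 are given too.

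Genes at shared peaks had no common direction in RNA. Of 15685 genes tested in the Yap active line, 0 passed an adjusted p of 0.05 in edgeR (0%), 1981 had an unadjusted p under 0.05 (12.6%), and DESeq2 called 11. Of the 3789 genes of the table with a shared peak, 3679 passed the count filter, and 0 of them were called. At an unadjusted p under 0.05, 225 were higher in Yap active libraries (6.12%, against 6.65% of all genes tested) and 279 lower (7.58%, against 5.98%). Their median log2 fold change was −0.01, with quartiles of −0.24 and 0.23, and that of all genes tested was also −0.01. Genes with an other peak had a median of 0.04, those at the second control list −0.12 and those at the first control list −0.06. Without the libraries labelled Yap active 1 and control 2, 13 genes were called among all tested, and 1102 genes at shared peaks had an unadjusted p under 0.05, 488 of them higher and 614 lower, among 4580 of all genes. The number and its balance depended on single libraries, and the number over all genes tested moved with it. Without Yap active 1 it was 1447 of 3676 (653 higher, 794 lower), beside 5846 of all 15483 genes tested. Without control 4 it was 1385 of 3683 (772 higher, 613 lower), beside 5541 of 15913. Without control 3 it was 144 of 3683 (43 higher, 101 lower), beside 611 of 15782.

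The genes at shared peaks with the highest fold changes at an unadjusted p under 0.05 were led by Cdkn1a, the p21 cell cycle inhibitor, whose start lay inside the peak at chr17:29093569-29093820 (fold 1.85). It had 60.4, 635, 313, 576, 541 and 481 CPM in Yap active libraries 1 to 6, against 55.9, 300.04, 49.1 and 68.7 CPM in control libraries 1 to 4. Yap active library 1 lay among the controls and control library 2 near the Yap active libraries, as for Esr1. The log2 fold change was 1.88 ± 0.70 (SE), with an unadjusted p of 0.0211 and an adjusted p of 0.366 in edgeR.

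Uhrf1, Cdt1 and Mcm5, 3 genes of DNA replication, followed. Uhrf1, which recruits the maintenance methyltransferase, had 16.2, 33.6, 37.1, 26.0, 33.2 and 52.0 CPM in Yap active libraries and 13.1, 3.56, 8.20 and 29.0 CPM in control libraries. Cdt1, a licensing factor of replication origins, had 11.1, 31.0, 37.3, 23.8, 29.5 and 38.1 CPM in Yap active libraries and 9.07, 5.73, 7.62 and 25.7 CPM in control libraries. For both genes control library 4 lay among the Yap active libraries, and the groups overlapped through it. Yap active library 1 was the lowest of its group for both, nearer to control library 1 than to the next Yap active library. The log2 fold changes were 1.29 ± 0.51 for Uhrf1, 1.24 ± 0.46 for Cdt1, 1.22 ± 0.51 for Mcm5, a subunit of the replicative helicase, and 1.12 ± 0.49 (SE) for the ribosomal protein gene Rpl18, each with an adjusted p of 0.366 in edgeR. Reads of Rpl18 may be split with its processed copies, so its value is uncertain. The peak of Mcm5, at chr8:75109388-75109589, covered the start and lay in an opened region, and Mcm6 of the same helicase also had a shared peak over its start and a log2 fold change of 0.79 ± 0.28 (SE).

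At an unadjusted p under 0.05 the lowest fold changes, among genes of at least 4 CPM, were those of Kitl, Acer2, C1s, Kctd12 and Zfp970. Kitl, the ligand of the Kit receptor, had 61.0, 19.4, 30.7, 16.1, 17.7 and 18.6 CPM in Yap active libraries, against 113, 58.8, 89.1 and 20.0 CPM in control libraries. Yap active library 1 and control library 4 again lay with the other group. Acer2, an alkaline ceramidase, had 7.13, 6.02, 3.84, 5.09, 4.56 and 3.27 CPM in Yap active libraries, against 11.05, 8.12, 22.04 and 6.89 CPM in control libraries, and its groups overlapped only between Yap active library 1 and control library 4. C1s, a complement protease made by mesenchymal cells among others, had 18.7 to 128 CPM in Yap active libraries, median 34.1, and 37.5 to 162 CPM in control libraries, median 135. The log2 fold changes were −1.36 ± 0.49 for Kitl, −1.27 ± 0.33 for Acer2, −1.25 ± 0.53 for C1s, −1.04 ± 0.46 for Kctd12 and −0.999 ± 0.31 (SE) for Zfp970, each with an adjusted p of 0.366 in edgeR. Zfp970, counted under Gm14420, belongs to a cluster of near-identical zinc finger genes, and its value is uncertain.

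**Figure D5:**
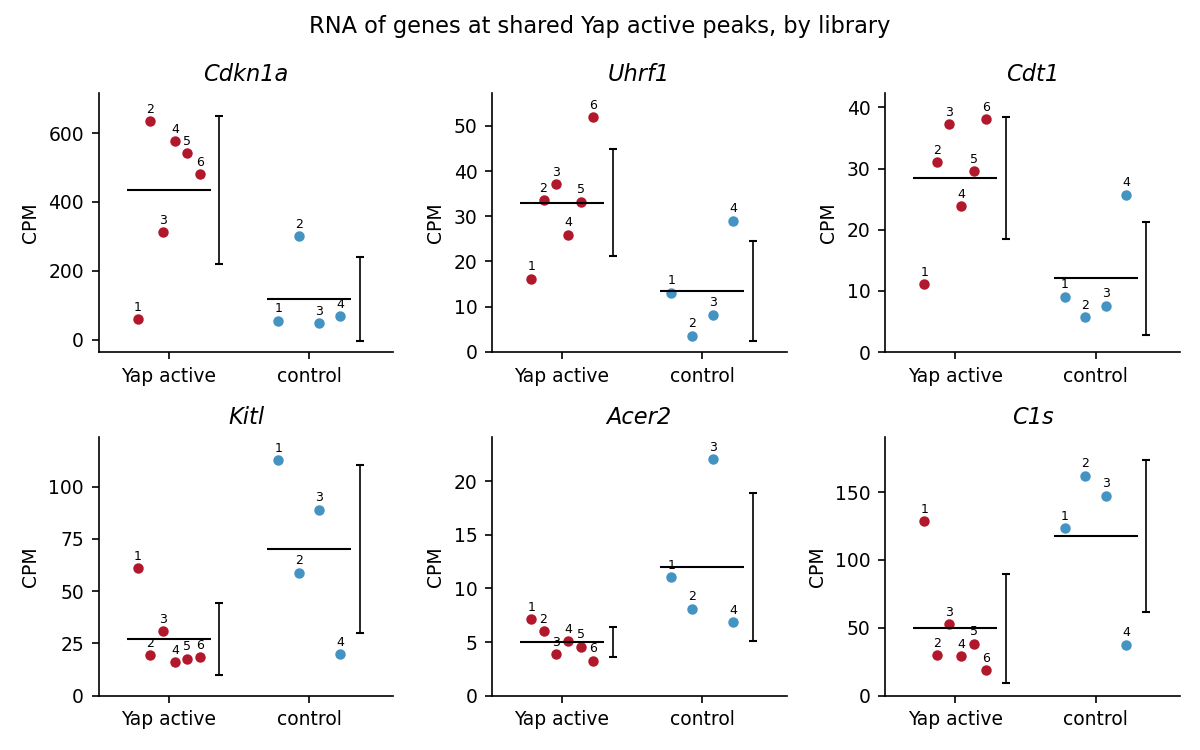
CPM (vertical axis) of 6 genes with a shared Yap active peak within 1 kb of a start site, in 6 Yap active libraries (red) and 4 control libraries (blue), each point labelled with its replicate number; lines are group means and bars 1 SD. Yap active library 1 and control library 2 lie with the other group for Cdkn1a, Yap active library 1 and control library 4 do so for Kitl and C1s, and control library 4 does so for Uhrf1 and Cdt1. For Uhrf1 and Cdt1 Yap active library 1 is also the lowest of its group, nearer to control library 1 than to the next Yap active library.

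Genes of the lists had values on both sides of 0, with none called. Of the 8 lung epithelial factors with a shared peak, all 8 had a positive log2 fold change, with a median of 0.35 against −0.01 over all genes tested, and 3 had an unadjusted p under 0.05, as did 12.6% of all genes tested. Of these, Irx3, a homeobox factor, had a log2 fold change of 0.58 ± 0.23, Foxa2, a forkhead factor of the lung epithelium, 0.56 ± 0.23, and Grhl1, an epithelial grainyhead factor, 0.55 ± 0.18 (SE). Etv5, which maintains AT2 cells, had 480 CPM in Yap active library 1 and 893 to 1165 CPM in libraries 2 to 6, against 505, 768, 643 and 903 CPM in control libraries, so its groups overlapped. The AT2 markers with a shared peak had a median of 0.32 with 5 of 6 positive, and the AT1 markers a median of −0.01 with 3 of 7 positive. Cell cycle genes had a median of 0.63 with 4 of 5 positive, and 2 of them, Mcm5 and Mcm6, at an unadjusted p under 0.05, against the same 12.6%.

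The Klf genes were on the other side, with 7 of 8 below 0 and a median of −0.24, and none at an unadjusted p under 0.05. Their values ran from −0.42 ± 0.48 (SE) for Klf2 to 0.10 ± 0.11 for Klf3. The AP-1 genes had a median of −0.36 with 4 of 6 below 0. Fos, an immediate early gene, had 1038, 178, 105, 89.5, 46.6 and 39.5 CPM in Yap active libraries, against 458, 1178, 414 and 146 CPM in control libraries. Yap active library 1 had a level within the range of the controls, the groups overlapped, and the unadjusted p was 0.243 in edgeR.

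Of the Hippo genes with a shared peak 4 were higher and 4 lower, with a median of 0.05. Wtip, a scaffold that restrains the kinase cascade, had 49.7, 66.2, 60.5, 56.1, 56.8 and 44.6 CPM in Yap active libraries, against 45.6, 47.1, 45.8 and 46.5 CPM in control libraries, and 5 of the 6 Yap active libraries lay above all controls. Its log2 fold change was 0.27 ± 0.12 (SE), with an unadjusted p of 0.0437 and an adjusted p of 0.366 in edgeR. Amotl2, a Yap target and binding partner, had 387, 313, 264, 354, 283 and 241 CPM in Yap active libraries, against 204, 325, 226 and 277 CPM in control libraries, and the groups overlapped. Amotl1 had 122 to 235 CPM in Yap active libraries, median 142, and 151 to 211 CPM in control libraries, median 164. Yap1 itself had 150 to 211 CPM in Yap active libraries, median 176, and 177 to 209 CPM in control libraries, median 199, with a log2 fold change of −0.12 ± 0.11 (SE).

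In the Yap deleted line the values of the same genes were also centred near 0. There 1 of 15818 genes tested was called in edgeR (0.00632%), and it had no shared peak, as 0 of 3675 tested genes at shared peaks were called. At an unadjusted p under 0.05, 245 genes at shared peaks were higher in Yap deleted libraries (6.67%, against 6.13% of all genes tested) and 232 lower (6.31%, against 9.18%). Their median log2 fold change was 0.00, against 0.01 over all genes tested. Side by side, Cdkn1a had a log2 fold change of 1.88 ± 0.70 in the Yap active and 2.16 ± 0.45 (SE) in the Yap deleted line. Kitl had −1.36 ± 0.49 and −1.38 ± 0.59, and Acer2 −1.27 ± 0.33 and −3.23 ± 0.95 (SE). Uhrf1 had 1.29 ± 0.51 and −0.22 ± 0.56, Cdt1 1.24 ± 0.46 and −0.01 ± 0.21, and Mcm5 1.22 ± 0.51 and −0.13 ± 0.42 (SE). Of the lists, the 8 lung epithelial factors with a shared peak were all above 0 in the Yap deleted line too, with a median of 0.36, and so were all 6 AT2 markers, with a median of 0.55. The Klf genes were below 0 in 6 of 8 cases there, with a median of −0.33 and with Klf2 at −2.05 ± 0.57, Klf7 at −1.01 ± 0.33 and Klf6 at −0.56 ± 0.15 (SE). All 7 AT1 markers were below 0 in that line, with a median of −0.75, as were all 5 cell cycle genes, with a median of −0.46, and 7 of 8 Hippo genes, with a median of −0.23. The Hippo genes include Yap1, the gene deleted in that line, which had the lowest value of the 8, −0.78 ± 0.22 (SE). None of these genes was called. In this line 2422 of all genes tested had an unadjusted p under 0.05 in edgeR, and 996 without the libraries labelled control 1 and 2. Values of single genes and of lists are given with all libraries only. Markers of other cells were summed only in the Yap active line, so their part in these values was not tested. The 2 lines have separate controls and were not tested against each other.

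Few shared peaks met the regions that the authors list for the Yap deleted line, though a larger share of them did than of the other peaks. The opened regions of that line overlapped 9 shared peaks (0.107%) and 17 other peaks (0.0377%), and its closed regions 35 shared peaks (0.417%) and 56 other peaks (0.124%). Of all 61570 peaks of the first Yap active list 185 lay in opened and 191 in closed regions. For the second control list it was 274 and 84 of 28399, and for the first 54 and 57 of 344689. In opened regions the first Yap active and second control lists thus had larger shares than the shared peaks. The shared peaks lay in 9 of 532 opened and 35 of 676 closed regions, with 1 shared peak of each within 1 kb of a start site. Their median fold was 2.18 in opened and 2.30 in closed regions, above the 1.78 of all shared peaks. Of the 35 in closed regions, 7 also overlapped a region opened in the Yap active line. The shared peaks of highest fold in closed regions lay at chr6:116654207-116654347 in a gene body of Rassf4 (3.03), a member of the family that binds the Hippo kinases, at chr15:51696794-51696953 in no gene (2.81), at chr19:20410193-20410470 in 1500015L24Rik (2.70), at chr13:95215714-95215796 in the phosphodiesterase gene Pde8b (2.66) and at chr10:63972470-63972640 in Ctnna3, an alpha-catenin, and Lrrtm3 (2.59). Those of highest fold in opened regions lay at chr12:86806438-86806644 (2.45), chr7:40264546-40264756 (2.41), chr12:25120839-25120925 (2.36), chr1:66168863-66169018, 6311 bp from a start of Map2 (2.20), and chr17:56664442-56664643 in the body of Catsperd (2.18).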

How the data were processed

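The authors deposited 4 peak lists with the column layout of broad peaks, which hold a score, a fold per peak (a ratio), −log10 p and −log10 q. They also deposited region lists annotated with HOMER's columns, per the file headers, with a score per region, and RNA counts per gene, as their whole numbers show. The submitters' processing notes name build mm10 and the tools HOMER, Bowtie2, Trim Galore, DESeq and Cufflinks, with neither version nor role. The peak caller, its cutoff, its background and any pooling are not given in the sources used here, nor is the counting program.

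Overlaps were computed with bedtools 2.31.1. Start sites and promoters came from the RefSeq table of GRCm38.p6, whose coordinates are those of mm10: 32851 sites of 27025 genes. RNA rows matched a RefSeq gene ID in 23307 of 23478 cases, and 17767 had a start site. RNA counts were scaled by TMM, filtered with filterByExpr and tested two-sided in edgeR 4.0.16 (R 4.3.3; quasi-likelihood, robust), with Benjamini-Hochberg adjustment at 0.05 over all genes tested. DESeq2 1.42.0 was an alternative. On simulated data with 15560 genes of the Yap active table, the fit recovered 87% of genes changed 2-fold and 100% of those changed 4-fold. The simulated counts gave every gene the same spread and held no split along the first principal component. These shares therefore do not tell how many real changes of that size the fit would find here. RNA libraries held 31.9 to 43.5 M counts, and replicates differed by more than counting error, with a chi-square per gene of at least 50.6 (Yap active table) and 84.2 (Yap deleted table).

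The members and gene lists were chosen with earlier results of these data known. The named genes were the 8 shared peaks of highest fold with a gene, the 3 widest, up to 25 of the gene lists by fold, up to 5 per list of the Yap deleted line, and the 5 highest and 5 lowest RNA fold changes at an unadjusted p under 0.05 and at least 4 CPM. Genes named beyond these were chosen after their values were seen. A planned search of the peaks' own sequence was replaced by promoter windows, since only those were used here.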

Additional observations from a re-analysis of the deposited data

Results flagged for a closer look

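For each of 15 genes, the 6 Yap active and the 4 control RNA libraries were each taken as a group, which gave 30 groups. Each group was checked for a library whose gap to the nearest of the others is large beside the group's whole range, and 10 were found. Chance flags about 1 in 20 groups. The library labelled Yap active 1 stood apart within its group for Stk3 (49.5 CPM, next 35.4), Stk4 (125 CPM, next 94.1), Esr1 (1.97 CPM, next 211), Kitl (61.0 CPM, next 30.7), C1s (128 CPM, next 52.9), Amotl1 (235 CPM, next 152) and Fos (1038 CPM, next 178). The library labelled control 2 stood apart for Esr1 (160.0 CPM, next 3.20) and Cdkn1a (300.04 CPM, next 68.7). The library labelled control 4 stood apart for Cdt1 (25.7 CPM, next 9.07). Counts without Yap active 1 and control 2 stand with the RNA results, and the source of these levels was not tested.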

How the results depend on the processing

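The number of shared peaks was 4724 where at least 50% of both peaks had to overlap and 870 at a −log10 p of at least 3 in both lists, a level chosen after seeing the data because a −log10 q of at least 5 left 0 shared peaks. At 50% of the peak covered by the first list, the median width was 166 bp, the median fold 1.74, the share in opened regions 26.2% and the share within 1 kb of a start site 50.6%. At the −log10 p level they were 163 bp, 1.83, 27.9% and 49.8%. With 50% of the peak inside the opened region the share was 22.4%. The share at start sites was 26.9% for peaks covering one, 53.6% within 5 kb and 53.1% within 1 kb of either end of a gene.

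In RNA of the Yap active line, DESeq2 called 11 genes, and 13 were called without the libraries labelled Yap active 1 and control 2, where genes at shared peaks had a median of 0.00976 and 1102 an unadjusted p under 0.05. That number was 88 with the library set (first principal component) as a covariate, beside 439 of all 15685 genes tested. It was 293 of 2125 genes for start sites inside the peak, beside 1981 of all 15685, and their median was −0.0291. Leaving out 1 library at a time gave 144 to 1447 such genes, beside 611 to 5846 among all genes tested. It gave 0 to 2 calls and medians of −0.0192 to 0.00998. The 2 highest numbers came without Yap active 1 (1447, 653 higher and 794 lower) and without control 4 (1385, 772 higher and 613 lower), and the lowest without control 3 (144). In the Yap deleted line the median was −0.0238 with RLE scaling, −0.0215 with DESeq2, 0.0180 without control libraries 1 and 2, and −0.0309 to 0.0174 leaving out 1 library at a time. The cause was not tested.

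Same-numbered libraries of the Yap active line correlated at 0.52, 0.01, 0.05 and 0.49, so the numbers were not taken as pairs. With the replicate block, 0 genes were called, and 357 genes at shared peaks had an unadjusted p under 0.05, beside 1926 of all genes tested. The medians were −0.01 and, in the Yap deleted line, 0.01. Of all results and alternatives compared, 43 values stayed within a set margin of the reported one and 44 moved. For counts of genes the margin was wide, so that 357 genes in place of 504 counted as unchanged. No alternative had deeper ATAC libraries, so what depth limits in the peaks was not tested.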
